A study of Mus musculus with 15 samples.

Results

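Binding of PU.1 was described at 6 genomic windows named for Tnf, Il1b, Il6, Il12b, Nos2 and Ptgs2, genes that macrophages switch on in inflammation. The members were the PU.1 peaks that touched these windows of mouse build mm9, which span 370 kb in all. The windows were set by position, with earlier results of these data known. Control replicates 1 and 2 had 20 of their 30026 and 22 of their 36759 peaks there. Replicates 1 and 2 of shPU.1 had 6 of 15122 and 14 of 27733, and the in vitro list had 10 of 57512. Merged where they shared at least 1 bp, the in vivo peaks formed 25 regions of 53107. Among these, 14 were control regions, defined as regions with a peak in both control libraries, a class of 21680 regions (40.8%) in the whole genome.

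The cells were C57BL/6 bone marrow-derived macrophages at day 7 of differentiation, transduced with a retrovirus. The shPU.1 cells (n = 2 chromatin immunoprecipitation libraries) carried a doxycycline-inducible short hairpin RNA against PU.1. The control cells (n = 2 libraries) carried the same vector with a hairpin against Renilla luciferase, a vector the labels call empty. One culture protocol is given for both groups, with puromycin at 3 µg/ml from day 3 and doxycycline at 0.5 µg/ml for 48 hours from day 5. The in vitro list came from nucleosomes that were assembled on naked macrophage DNA with recombinant histones and incubated with macrophage nuclear extract. The extract was depleted with normal IgG in one library and with anti-PU.1 in the other, and peaks of the first were called against the second. No inflammatory stimulus is named in the labels of these samples. The sources used here do not give the age and sex of the mice, or whether the replicates were separate cultures, so the spread between them may be technical. The lists hold no expression, so neither the cell type nor the strength of the knockdown could be checked in them.

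PU.1 is an ETS-family transcription factor that macrophages express at high levels and that binds purine-rich DNA around a GGAA core. At inflammatory genes it is known to occupy enhancers before any stimulus, where factors such as NF-κB and AP-1 act when the cell is activated. Tnf, Il1b, Il6 and Il12b encode cytokines: tumour necrosis factor, the interleukin-1β precursor, interleukin-6, and the subunit that interleukin-12 and interleukin-23 share. Nos2 encodes inducible nitric oxide synthase, and Ptgs2 encodes the inducible cyclooxygenase of prostaglandin synthesis.

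The promoter sequences of 5 of the 6 genes are shown because they hold the DNA that the PU.1 core can be looked for in. They are from RefSeq on build GRCm38.p6, 5′ to 3′ on the strand of the gene, and end where the annotated gene begins (250 bases each, 225 for Il1b). Capitals mark GAGGAA, the core with its usual upstream bases, on either strand (TTCCTC where it lies on the opposite one). The first 3 hold it and the last 2 do not.
Tnf promoter, chr17:35202008-35202257, minus strand: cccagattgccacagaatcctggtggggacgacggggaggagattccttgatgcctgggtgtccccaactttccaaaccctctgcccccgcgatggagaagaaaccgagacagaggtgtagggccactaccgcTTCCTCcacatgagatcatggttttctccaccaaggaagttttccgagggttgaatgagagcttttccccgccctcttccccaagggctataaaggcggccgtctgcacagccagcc
Il12b promoter, chr11:44399813-44400062, plus strand: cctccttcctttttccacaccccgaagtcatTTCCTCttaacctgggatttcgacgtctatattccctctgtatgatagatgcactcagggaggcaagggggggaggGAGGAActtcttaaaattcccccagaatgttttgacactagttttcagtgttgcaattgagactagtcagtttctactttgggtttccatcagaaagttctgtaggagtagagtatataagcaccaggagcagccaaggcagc
Ptgs2 promoter, chr1:150099781-150100030, plus strand: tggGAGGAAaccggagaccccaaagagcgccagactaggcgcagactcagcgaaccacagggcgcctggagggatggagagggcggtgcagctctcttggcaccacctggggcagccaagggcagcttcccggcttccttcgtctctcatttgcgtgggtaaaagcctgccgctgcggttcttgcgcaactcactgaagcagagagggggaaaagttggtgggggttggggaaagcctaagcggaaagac
Il1b promoter, chr2:129371165-129371389, minus strand: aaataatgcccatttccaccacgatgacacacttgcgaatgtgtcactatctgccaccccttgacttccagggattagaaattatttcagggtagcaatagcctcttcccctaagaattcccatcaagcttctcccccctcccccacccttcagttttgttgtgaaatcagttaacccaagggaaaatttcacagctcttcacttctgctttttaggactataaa
Il6 promoter, chr5:30012864-30013113, plus strand: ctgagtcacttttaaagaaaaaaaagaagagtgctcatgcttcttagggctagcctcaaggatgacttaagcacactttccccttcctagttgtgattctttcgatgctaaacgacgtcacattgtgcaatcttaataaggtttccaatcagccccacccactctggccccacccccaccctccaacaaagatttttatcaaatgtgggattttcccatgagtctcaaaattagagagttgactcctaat
The match in Tnf ended 111 bases before the gene, on the opposite strand. Il12b held 2 matches, 213 bases (opposite strand) and 137 bases (same strand) before the gene, and Ptgs2 held 1, at 241 bases. GAGGAA was found on either strand in 23.3% of 32851 RefSeq mouse promoters over 250 bases, and the shorter GGAA, which it contains, in 93.4%. These positions are on another build than the peaks, so whether a peak covered a promoter was not determined, and distances are given below from the start of each window. Nos2 is named only.

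Peak numbers differed widely between the windows. The Tnf window (chr17:35315000-35360000) held 8 and 9 peaks in control replicates 1 and 2. Among 58679 consecutive bins of the same 45 kb length that tile the genome, 0.138% and 0.0579% held as many or more. The Il1b window (chr2:129170000-129220000) held 6 in each control, a number reached by 0.930% and 1.16% of bins of its length. The Il12b window (chr11:44190000-44245000) held 4 and 3, reached by 4.46% and 11.3% of bins. The Il6 window (chr5:30290000-30360000) held 1 and 2, the Nos2 window (chr11:78715000-78790000) 1 in each, and the Ptgs2 window (chr1:151900000-151975000) 0 and 1. Between 24.2% and 39.4% of bins held as many as these last 3 windows wherever a control list had a peak in them. The bins include gene-free DNA and were not matched for gene density. The count plot shows the Tnf and Il1b windows well above the other 4 in both controls.

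**Figure D1:**
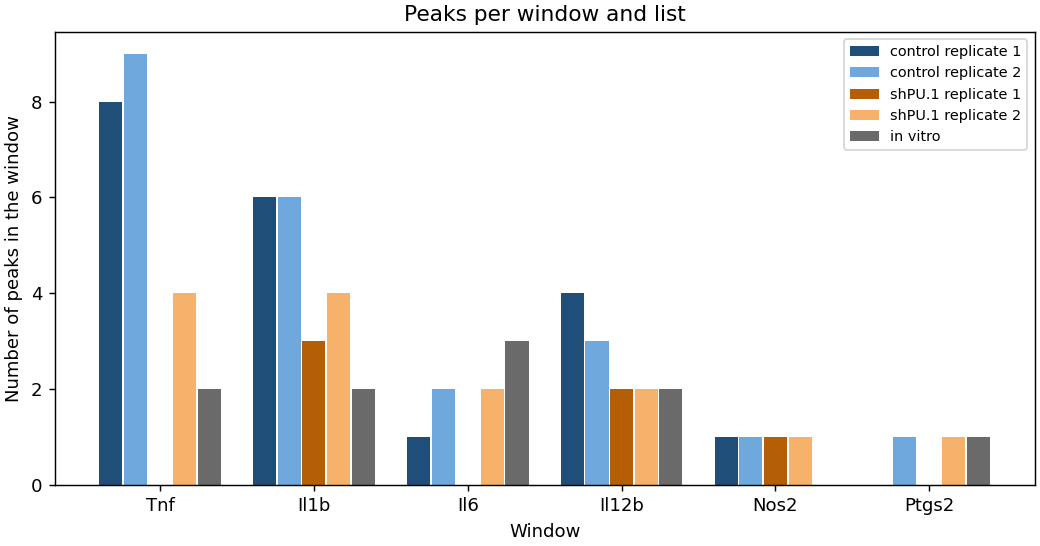
Number of PU.1 peaks (y axis) in each of the 6 windows (x axis), 1 bar for each of the 5 lists. The Tnf window goes from 8 and 9 peaks in the controls to 0 and 4 under the hairpin, while the Nos2 window holds 1 peak in all 4 in vivo lists.

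Under the hairpin the 6 windows together held fewer peaks. They had 20 and 22 in the controls (21 ± 1.41, SD, n = 2) and 6 and 14 in the shPU.1 libraries (10 ± 5.66, SD, n = 2), so the groups did not overlap. The log2 ratio of the means was -1.07, and the two-sided exact permutation test gave p = 0.33, its lowest possible value with 2 libraries a group. Over the whole genome the log2 ratio was -0.64, also with no overlap of the groups. Leaving out replicate 1 or 2 of shPU.1 gave -0.58 or -1.81 in the windows. The ratio was -0.64 without the Tnf window, which held 17 of the 42 control peaks, against 4 of the 20 under the hairpin. With every in vivo list limited to its 15122 highest scores, the windows held 10 and 13 control peaks and 6 and 9 shPU.1 peaks, by replicate number. The log2 ratio was then -0.62 in the windows, beside 0 in the whole genome, which equal lists fix in advance. Sequencing depth is unknown for every list, and its part in these numbers was not tested.

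Of the 14 control regions, 5 were kept (a peak in both shPU.1 libraries), 6 were partial (a peak in 1) and 3 were lost (a peak in neither). The whole-genome shares were 40.0% kept, 31.0% partial and 29.1% lost. The share kept in the windows was 35.7% (exact 95% interval 12.8 to 64.9, n = 14 regions, counting error only), which includes the genome-wide share. All 6 partial regions had their peak in shPU.1 replicate 2. Of the 6713 partial regions of the whole genome, 5964 likewise had it in shPU.1 replicate 2. That library had a peak in 11 of the 14 regions, beside 67.5% of all control regions, and shPU.1 replicate 1 in 5, beside 43.4%. With shPU.1 replicate 1 left out, 11 of 14 regions counted as kept (67.5% in the genome), and with replicate 2 left out, 9 counted as lost (56.9% in the genome). No region of the windows was gained (found in both hairpin libraries and in no control), a class that made up 0.510% of all regions.

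Paired values below are in the order of replicates 1 and 2. Scores were compared between lists only by their percentile within a list, the share of its peaks with the same or a lower score. The mean of the 2 control percentiles had a median of 74.5 over the 14 control regions, and 61.5 over all 21680. This order turned in 2 other settings. With scores of at least 100 the medians were 55.3 in the windows and 60.8 in the genome, and with in vivo lists cut to equal length they were 52.9 and 59.7. Of the 14, 10 lay above the median of all control regions, and none lay in the highest decile. The median in the windows was 66.9 in control replicate 1 and 84.7 in control replicate 2, so the libraries placed the same regions differently. The plot of class by rank sets the 14 regions against the genome.

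**Figure D2:**
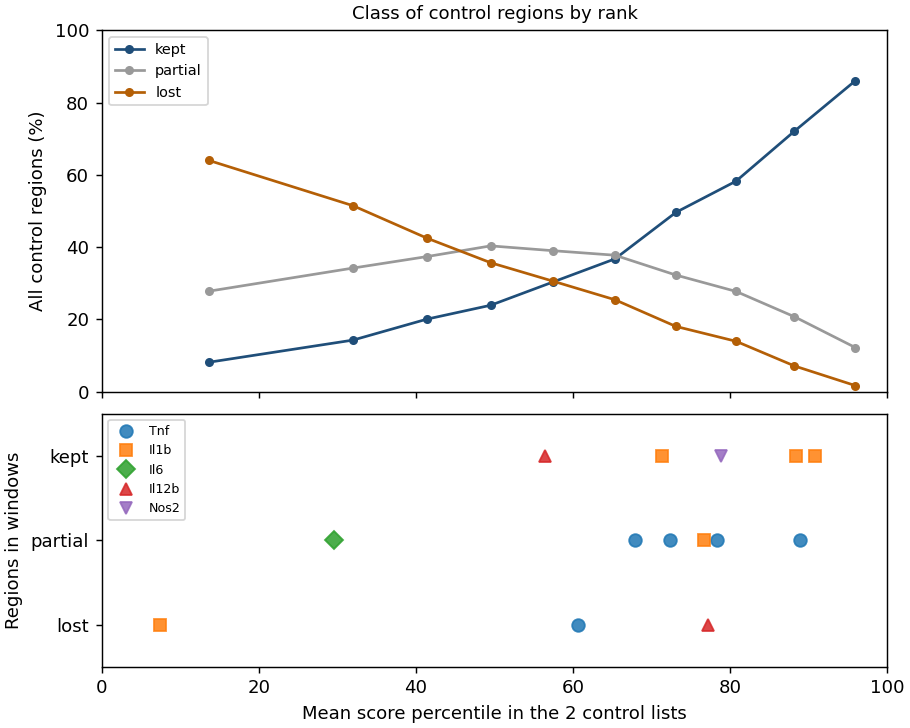
Upper panel: share of all control regions that were kept, partial or lost (y axis, percent) in each decile of the mean control percentile (x axis). Lower panel: the 14 control regions of the windows by class, 1 marker per region. All 5 Tnf regions lie in the partial or lost rows, while 3 of 5 Il1b regions lie in the kept row.

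The peak map shows how the peaks of the 5 lists lie within each window.

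**Figure D3:**
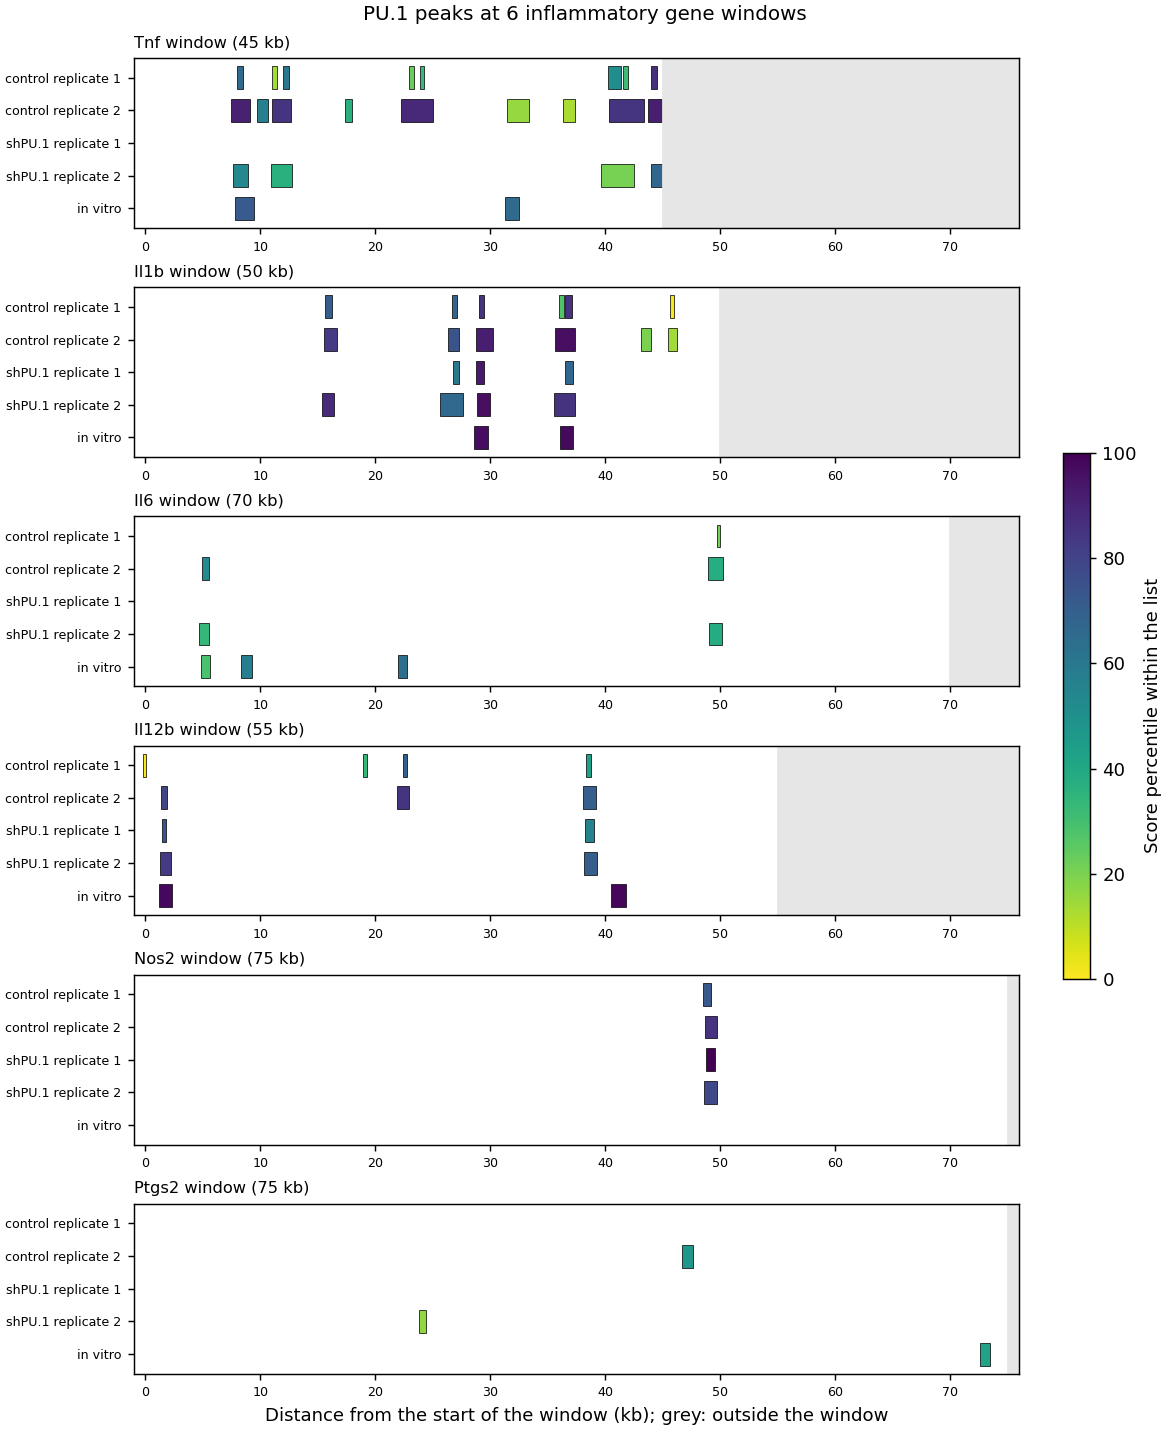
Peaks of each list (rows) along the 6 windows (panels), by distance from the window's start in kb (x axis), coloured by score percentile within the list. The row of shPU.1 replicate 1 is empty in the Tnf, Il6 and Ptgs2 windows. The control replicate 2 bars are mostly wider than those of control replicate 1.

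At Tnf, a dense row of control sites was found only in part under the hairpin. The window held 9 regions, of which 5 were control regions: 4 were partial and 1 was lost. No peak of shPU.1 replicate 1 touched the window. In that list 81.4% of bins of this length held no peak, but 77.1% of such bins held no control region either. Of all control regions, 43.4% had a peak in that list. With windows widened by 10 kb, the Tnf window had 6 control regions, 1 of them kept. The gene lies between Ltb and Lta, the lymphotoxin genes, in RefSeq gene order, so sites here may lie nearer to a neighbour than to Tnf.

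The highest-ranked Tnf region, at chr17:35358692-35359998 and 43.7 kb into the window, scored 240 and 531 in control replicates 1 and 2. It had no peak in shPU.1 replicate 1 and a score of 154 in shPU.1 replicate 2. Its percentiles were 86.0 and 91.7 in the controls and 67.0 in shPU.1 replicate 2. Of all control regions in the same decile of rank, 72.1% were kept and 7.15% lost. The region came within 2 bp of the window's end, and windows narrowed by 5 kb leave it out.

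The second, at chr17:35322477-35324098 (7.48 kb), scored 129 and 505 in the controls and 103 in shPU.1 replicate 2. It was the only Tnf control region with an in vitro peak, which scored 172 at percentile 71.6. The third, at chr17:35325941-35327748 (10.9 kb), scored 113 and 362 in the controls and 73.9 in shPU.1 replicate 2. The fourth, at chr17:35354673-35358387 (39.7 kb), scored 96.8 and 359 in the controls and 59.8 in shPU.1 replicate 2. In the rank deciles of the last 2 regions, 49.6% and 36.8% of control regions were kept and 18.1% and 25.5% lost. The percentiles in shPU.1 replicate 2 were 53.1, 36.5 and 20.5 for these 3, each below both control percentiles of the same region. Lists of different length do not make this a measure of change.

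The lost Tnf region, at chr17:35337220-35340051 (22.2 kb), showed the widest gap between the control libraries. It scored 72.5 in control replicate 1, at percentile 32.5, and 444 in control replicate 2, at percentile 88.8. Control replicate 1 had 2 narrow peaks of 450 and 345 bp there, and control replicate 2 had 1 peak of 2832 bp. In its decile of rank, 30.6% of all control regions were lost. The alternative settings could not add a shPU.1 peak here, so they do not test the loss.

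The other 4 Tnf regions had a peak in control replicate 2 alone, with scores from 61.0 to 142. Regions of that kind made up 17.7% of all regions. One of them, at chr17:35346423-35348398, held the second in vitro peak of the window, with a score of 147.

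At Il1b, the strongest sites stayed detectable in all 4 in vivo lists and were also bound in vitro. The window held 6 regions and 5 control regions, of which 3 were kept, 1 was partial and 1 was lost. The region at chr2:129205576-129207406 (35.6 kb) had the highest mean control percentile of all 14, at 90.8. It scored 233 and 775 in the controls, replicates 1 and 2, with 99.6 and 347 in the shPU.1 libraries. Its in vitro peak scored 740, at percentile 97.4.

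The region at chr2:129198737-129200234 (28.7 kb) scored 229 and 535 in the controls, with 240 and 883 in the shPU.1 libraries. Its percentiles were 84.8 and 91.8 in the controls, with 93.5 and 96.2 in the shPU.1 libraries, where it was the highest of the Il1b window in both libraries. Its in vitro peak scored 658, at percentile 96.6. Of all control regions in the decile of rank of these 2 regions, 72.1% were kept.

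The third kept region, at chr2:129195614-129197657 (25.6 kb), scored 136 and 236 in the controls, with 88.0 and 153 in the shPU.1 libraries. It had no in vitro peak. The partial region, at chr2:129185348-129186644 (15.3 kb), scored 145 and 330 in the controls. It had no peak in shPU.1 replicate 1 but scored 416 in shPU.1 replicate 2, at percentile 88.1, higher than its 70.5 and 82.8 in the controls. Detection in shPU.1 replicate 1 therefore did not follow the percentile in shPU.1 replicate 2 at this region.

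The lost Il1b region, at chr2:129215491-129216198 (45.5 kb), was weak, with scores of 50.2 and 62.1 in the controls. These were percentiles 0.819 and 13.9, the lowest of the 14 regions, and in its decile of rank 64.0% of all control regions were lost and 8.16% kept. The sixth region had a peak in control replicate 2 alone, at a score of 67.8.

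At Il12b, sites of differing behaviour lay within the window. It held 5 regions and 2 control regions, 1 kept and 1 lost. The lost region, at chr11:44211900-44212915 (21.9 kb), scored 142 and 359 in the controls, percentiles 69.7 and 84.6. It had the highest mean control percentile of the 3 lost regions, at 77.2. In its decile of rank 14.0% of all control regions were lost and 58.3% kept. As at Tnf, the alternative settings could not add a shPU.1 peak here and do not test the loss.

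The kept Il12b region, at chr11:44228040-44229243 (38.0 kb), scored 84.4 and 204 in the controls, with 82.7 and 174 in the shPU.1 libraries. Its percentiles were 42.9 and 70.0 in the controls, with 56.0 and 70.6 in the shPU.1 libraries. In its decile of rank 30.4% of control regions were kept. Neither of the 2 control regions held an in vitro peak.

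A region at chr11:44191274-44192237 (1.27 kb into the Il12b window), singled out after its values were seen, had peaks in 3 of the 4 in vivo lists. It had none in control replicate 1, scored 288 in control replicate 2, and had scores of 115 and 301 in the shPU.1 libraries. It was therefore no control region, although its percentile was 79.7 in control replicate 2 and 74.1 and 82.7 under the hairpin. Its in vitro peak scored 854, at percentile 98.0. The highest in vitro score of the 6 windows, 945 at percentile 98.4, was also in this window, at chr11:44230512-44231839 (40.5 kb). No in vivo peak touched it, as for 79.3% of all in vitro peaks and 57.4% of those in the highest decile of score. The other 2 Il12b regions were seen in control replicate 1 alone, with scores of 50.2 and 73.4, the first of them across the start of the window.

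At Il6, PU.1 peaks were few and low. The 1 control region, at chr5:30338980-30340218 (49.0 kb), scored 63.6 and 93.8 in the controls and 76.3 in shPU.1 replicate 2, with none in shPU.1 replicate 1. Its percentiles were 20.9, 38.2 and 38.4 in the same order. Of all control regions in its decile of rank, 14.3% were kept and 51.5% lost. The other region, at chr5:30294662-30295522 (4.66 kb), scored 128 in control replicate 2 and 70.4 in shPU.1 replicate 2, and held a low in vitro peak at percentile 28.8. Of the 3 in vitro peaks in the window, the highest scored 139 at percentile 63.9, at chr5:30311944-30312775, away from any in vivo peak. The Il6 window had 3 in vitro peaks, a number that 22.2% of bins of this length reached.

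At Nos2, 1 region lay in the window, with a peak in all 4 in vivo lists and none in vitro. It lay at chr11:78763519-78764756 (48.5 kb into the window) and scored 153 and 367 in control replicates 1 and 2. Under the hairpin, replicate 1 scored 2102 and replicate 2 scored 241. The peak was rank 9 of 15122 in shPU.1 replicate 1, at percentile 99.9, while its percentiles were 72.5, 85.1 and 78.4 in the other 3 lists. The percentile there was 14.8 points above the highest of the other 3, a gap that 107 of the 8666 kept regions of the genome reached (1.23%). Percentiles end at 100, so a kept region already high in another list could not reach this gap. The gap was looked at after these values were seen. The value was high in 1 library and was not shared by the second shPU.1 library. In its decile of rank, 58.3% of control regions were kept. These counts depended on the settings. With windows widened by 10 kb, the Nos2 window had 3 control regions, and 3 were kept. With peaks trimmed to their central 200 bp, it had 0 control regions.

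At Ptgs2, no region was shared between lists. A peak in control replicate 2 alone, at chr1:151946709-151947591 (46.7 kb), scored 113 at percentile 47.2. A peak in shPU.1 replicate 2 alone, at chr1:151923833-151924371 (23.8 kb), scored 57.4 at percentile 16.8. The 1 in vitro peak, at chr1:151972575-151973441 (72.6 kb), scored 90.3 at percentile 42.2 and met no in vivo peak. Of bins of this length, 65.7% were likewise empty in control replicate 1, and 73.5% in shPU.1 replicate 1.

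The plot of percentiles by region puts all 25 regions side by side.

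**Figure D4:**
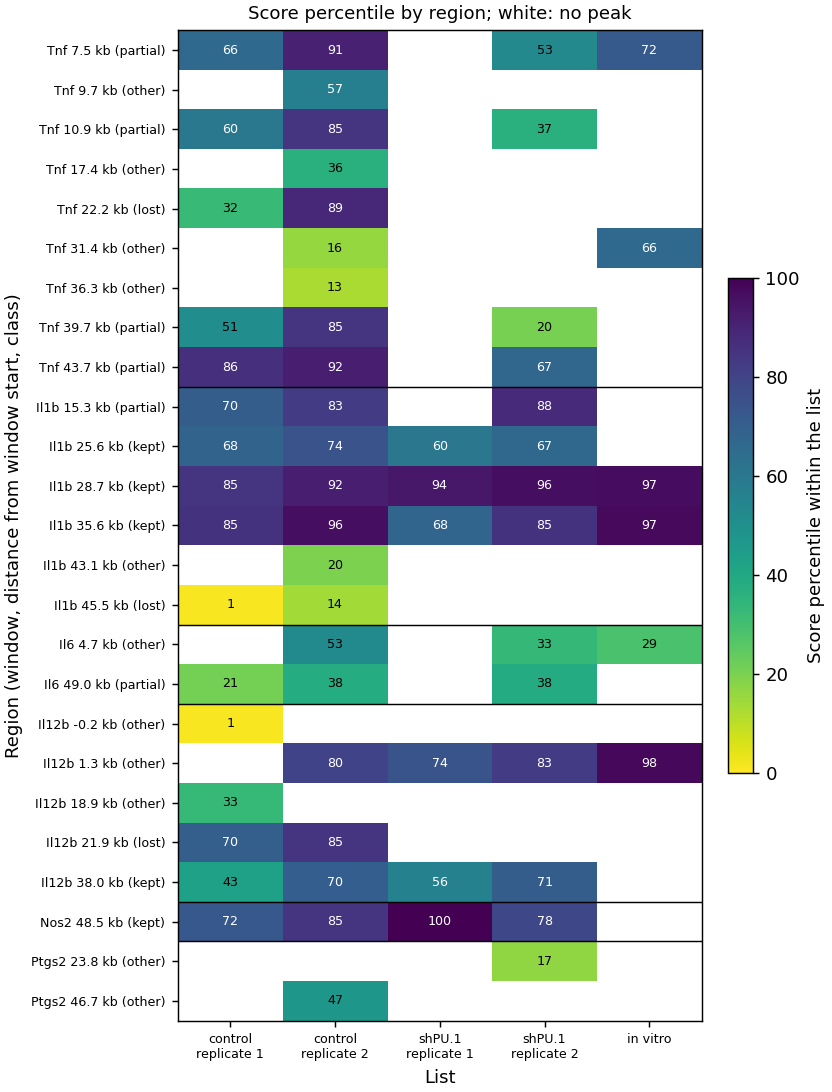
Score percentile within each list (colour and number, 0 to 100) for the 25 regions (rows) in the 5 lists (columns), with white cells where the list has no peak. The Nos2 region reaches 99.9 in shPU.1 replicate 1 only, and the column of that library is white for all 9 Tnf regions.

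An in vitro peak lay on 3 of the 14 control regions, beside 27.6% of all control regions. The share was 21.4% (exact 95% interval 4.66 to 50.8, n = 14 regions, counting error only), an interval that includes the genome-wide share. After a shift of the in vitro peaks by 50 kb it was also 3 of 14, while over the whole genome the shifted share was 5.57%. A single shift in a single direction over 14 regions is too little to tell whether the overlap in the windows exceeded a background. Of the 10 in vitro peaks in the windows, 3 lay on control regions, 3 on other in vivo regions and 4 on none. Of all in vitro peaks, 10.6% lay on a control region and 79.3% on no in vivo region. In vivo peaks were denser in the windows than in the genome, so these shares do not compare like with like. In vitro peaks numbered 2.70 per 100 kb in the windows and 2.18 in the genome, a ratio of 1.24. For control replicates 1 and 2 the ratios were 4.75 and 4.27, and in the shPU.1 libraries they were 2.83 and 3.60.

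Peak width went with the replicate number in the windows as in the whole lists. Median widths in the windows were 442 and 1095 bp in control replicates 1 and 2, and 652.5 and 1146.5 bp in shPU.1 replicates 1 and 2. Over whole lists they were 435 and 892 bp in the controls, and 448 and 1076 bp in the shPU.1 libraries. Control replicate 2 thus joined sites that control replicate 1 listed apart: 4 of the 14 control regions held 2 peaks of control replicate 1 and 1 of control replicate 2. Trimming all peaks to their central 200 bp left 9 control regions, with 3 kept and 3 lost, beside 34.8% and 32.4% in the whole genome. Joined sites and peaks of unequal width can then stop overlapping because their centres differ. The part of width in the kept and lost counts was thus not isolated.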

How the data were processed

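PU.1 was mapped by chromatin immunoprecipitation and sequencing in 6 of the 15 samples; the other 9, micrococcal nuclease digests, are not analysed here. Bowtie 0.12.7, MACS 1.4 and build mm9 are named in the submitters' processing notes. The sources used here give no parameters. The 5 deposited lists give each peak's position and the authors' score, by MACS convention 10 times the negative log10 of its p-value. Per the deposited files' names, each in vivo library was called against an input. The score grows with depth, which is unknown, so it only ranks peaks within a list.

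Positions were converted to count from 1. In vivo peaks sharing at least 1 bp were merged, and a region took the highest percentile of its peaks in a list. Python 3.11.15, pandas 2.3.3 and scipy 1.17.1 were used. The classification was checked on simulated lists with shPU.1 peaks placed at region centres. That check does not cover unequal peak widths or joined sites. Intervals are exact (Clopper-Pearson). The windows, members and tests were chosen with earlier results of these data known. Regions described were the 3 highest control regions per window, lost and gained ones and the highest in vitro peak, with the rest in brief. Regions are not replicates, and no test set the windows against the genome. Alternatives covered score, width, list length, overlap, window extent, merging, in vitro peaks, and leaving out libraries or windows.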

Additional observations from a re-analysis of the deposited data

How the results depend on the processing

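The log2 ratio of peak numbers stayed below 0 under all 16 alternatives, from -1.81 to -0.58. The in vitro share of control regions ran from 11.1% to 33.3% under 17 alternatives, the 50 kb shift among them. All lay within the counting interval of 4.66% to 50.8%, which is too wide to test stability. The kept share ran from 27.3% to 78.6% and the lost share from 21.4% to 64.3% when 1 library was left out, with the highest kept share without shPU.1 replicate 1 and the highest lost share without shPU.1 replicate 2. The other alternatives gave kept shares of 22.2% to 55.6%, the latter without the Tnf window. The median control percentile became 55.3 for scores of 100 or more and 52.9 for lists of equal length, below the 60.8 and 59.7 of all control regions, where the main value was above. Percentiles are taken within shorter lists in these settings. Leaving out 1 control library gave 59.9 to 77.1. For scores of 100 or more there were 9 control regions, with 2 kept and 2 lost, beside 32.3% and 31.3% in the genome. Lists of equal length left 10, with 4 kept and 3 lost, beside 58.7% and 19.2% in the genome. Windows widened by 10 kb had 18, with 9 kept and 3 lost, and a log2 ratio of peak numbers of -0.66. Without control replicate 1 the regions of control replicate 2 numbered 22, with 9 lost (43.7% in the genome), and without control replicate 2 those of control replicate 1 numbered 17, with 6 lost (42.8% in the genome). The number of shPU.1 libraries with a peak at a control region was the same in 187 of 196 values. Many of these settings leave the shPU.1 peaks of a site untouched, so the share does not measure stability. The 9 values that changed all came from scores of 100 or more or from lists of equal length.

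With the replicate number as a block, the log2 ratio became -1.19, the kept share 45.2% and the lost share 54.8%, since each control library is then set against 1 shPU.1 library. Within numbers, 5 of 16 regions of control replicate 1 had a peak in shPU.1 replicate 1 (34.7% in the genome), and 13 of 22 of control replicate 2 in shPU.1 replicate 2 (53.2% in the genome). No label ties equal numbers to a common mouse or day, and differences between the numbers had a correlation of 0.105 between the groups over 8666 kept regions.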

Other observations

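The Nos2 peak of shPU.1 replicate 1 was 1 of the 9 with the highest scores in that list. Of these, 3 lay on chromosome Y. The other 6 each had a peak in at least 1 control list. The nearest peak above it outside chromosome Y, rank 7 at chr11:112643791-112644376, had percentiles of 90.1 and 97.4 in the control lists and 94.2 in shPU.1 replicate 2, against 72.5, 85.1 and 78.4 for the Nos2 region.

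Of the 25 regions, 9 were seen in a single in vivo list: 6 in control replicate 2, 2 in control replicate 1, 1 in shPU.1 replicate 2 and none in shPU.1 replicate 1. Regions of these 4 kinds made up 17.7%, 10.1%, 13.8% and 6.06% of all regions. The highest score among them was 142, in the Tnf window.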
